A study of Mus musculus with 11 samples.

Results

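The genes described here encode 6 proteins that are secreted by the retinal pigment epithelium (RPE) and bind, carry or act on other molecules outside the cell. They are Ttr, Rbp4, Ptgds, Clu, Enpp2 and Cst3, and all 6 were found by symbol among the 14602 genes of the count table. They are a list of genes by name, which was chosen by high count levels in these libraries although Rbp4 is low, and levels are therefore described without a test. RNA was collected from the RPE/choroid of C57BL/6J mice at 12 months of age. In 5 laser treated samples the eye had been exposed, when the mice were 9 months old, to the 2RT nanosecond laser, and 6 naïve control samples came from untreated mice of the same age. Treatment was to 1 eye, the neural retina was removed before lysis, and a SmartSeq kit, made for small amounts of RNA, amplified whole transcripts before library preparation. Each sample is a mixture of RPE, choroid and whatever retina remained, so that fewer cells of a type and less RNA per cell cannot be told apart. The comparison asked whether the laser left a change in the RPE transcriptome 3 months later.

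Transthyretin (Ttr) and retinol-binding protein 4 (Rbp4) travel together in blood, where the complex delivers retinol to tissues, and transthyretin also carries thyroxine. The RPE takes up retinol from this complex on its choroidal side and makes both proteins itself. Lipocalin-type prostaglandin D synthase (Ptgds) is at once an enzyme, which makes prostaglandin D2, and a lipocalin, a barrel-shaped carrier of retinoids and other lipids. Clusterin (Clu) is an extracellular chaperone that holds unfolded proteins in solution and restrains the terminal complement complex, and it is a component of drusen. Autotaxin (Enpp2) makes the signalling lipid lysophosphatidic acid (LPA) from lysophosphatidylcholine, and cystatin C (Cst3) inhibits the cysteine cathepsins.

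Libraries held 25700881 to 38755994 counts. All 14 RPE markers examined were detected, with Best1 and Cldn19 at means of only 0.97 and 0.88 CPM (counts of a gene per 1000000 of the library). Their summed level, led by Rgr with a mean of 60802 CPM, ranged from 77801 to 118953 CPM in naïve control. In laser treated libraries it ranged from 71960 to 117283 CPM, so RPE transcripts were abundant in each library. The 9 endothelial markers summed to 119 to 333 CPM in naïve control and 186 to 530 CPM in laser treated libraries. All 16 rod and cone markers were detected too, with sums of 7161 to 29101 CPM in naïve control and 5205 to 21527 CPM in laser treated libraries, and their part in the results was not tested. The transcript files carry a label, R1 for naïve control 1 to 3 and laser treated 1 and 2 and R2 for the other libraries, whose meaning no source gives. Laser treated 4 stood apart for Ttr, Rbp4, Ptgds and Cst3, and values without it are given beside their results.

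The high ranks of 5 of the genes follow from their choice by count level in these libraries, while the label of abundant carriers went against the data for Rbp4. By mean count Ptgds ranked 3, Ttr 4, Clu 6, Enpp2 8 and Cst3 11 among the 14602 genes. Rbp4 ranked 11584, with 14 to 201 counts per library, next to Itih5 at rank 11583 and L1cam at rank 11585. Ttr lay between Ptgds and Rpe65, the retinoid isomerase of the visual cycle, at rank 5. Clu lay between Rpe65 and the nuclear non-coding RNA Malat1 at rank 7, and Enpp2 between Malat1 and Ctsd, a lysosomal protease, at rank 9. Cst3 lay between Arl6ip1, which shapes the endoplasmic reticulum, at rank 10 and Apoe, a lipid carrier, at rank 12, while Trf, transferrin, stood directly above Ptgds at rank 2.

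Together the 6 genes took 8.27% ± 0.652 (SD, n = 6) of all naïve control counts and 8.42% ± 1.74 (SD, n = 5) after laser. The share ran from 7.16% to 9.08% in naïve control and from 5.84% to 10.1% in laser treated libraries.

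Counts were divided by transcript length to give TPM (transcripts of a gene per 1000000), the scale on which levels of different genes can be set side by side. Ptgds was then the highest gene of the table with a mean level of 92774 TPM ± 13971 (SD, n = 11). Ttr ranked 3 at 30023 TPM ± 5576 (SD, n = 11), Cst3 5 at 17945 TPM ± 2517 (SD, n = 11) and Clu 8 at 11304 TPM ± 2148 (SD, n = 11). Enpp2, the longest of these transcripts, ranked 15 at 5925 TPM ± 1363 (SD, n = 11), and Rbp4 ranked 8950 at 5.70 TPM ± 2.96 (SD, n = 11).

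The order of levels was almost fixed from library to library. Ptgds exceeded Ttr in 11 of 11 libraries by a median of 2.98-fold, Ttr exceeded Cst3 in 11 of 11 by 1.68-fold, and Clu exceeded Enpp2 in 11 of 11 by 1.82-fold. Cst3 and Clu were the only neighbours that changed places, since the ratio of Cst3 to Clu ranged from 0.993 to 2.17 and Cst3 was higher in 10 of 11 libraries. Rbp4 was below Enpp2 in 11 of 11 libraries, by a median of 841-fold.

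**Figure D1:**
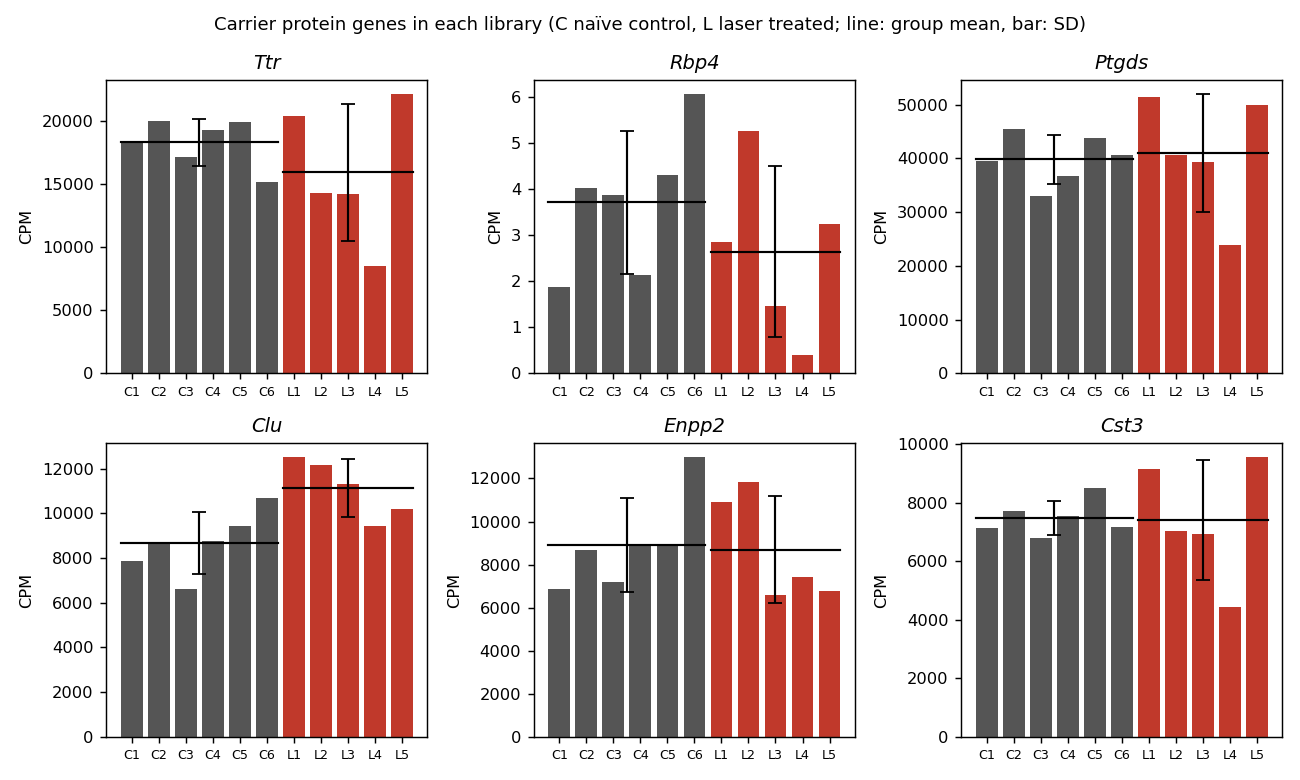
Level of each carrier gene in CPM (y axis from 0, 1 scale per panel) in the 6 naïve control libraries (grey bars) and the 5 laser treated libraries (red bars), with the group mean as a line and its SD as a vertical bar. Groups overlap in each panel, Clu bars are mostly taller after laser (mean 11116 against 8685 CPM), and laser treated 4 is the shortest bar for Ttr, Rbp4, Ptgds and Cst3.

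None of the 6 carriers passed the threshold after laser treatment, and neither did any other gene: edgeR called 0 of 14602 genes (0%) at an adjusted p under 0.05, while 2325 genes (15.9%) lay under an unadjusted p of 0.05. Of the carriers, 1 of 6 did, Clu, a share near that background. DESeq2 called 502 of 7512 genes (6.68%) and 0 of the 5 carriers it gave an adjusted p, which left out Rbp4. The CPM of the groups overlapped for all 6 carriers, and the groups were apart for 2.26% of all genes. The log2 fold change was above 0 for 2 carriers and below 0 for 4, against 48.5% above 0 among all genes.

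Ttr, on chromosome 18 from 20665280 to 20674321 of GRCm38 (plus strand, 4 exons), ranged from 15170 to 20016 CPM in naïve control libraries with a median of 18817 CPM. In the laser treated libraries 1 to 5 it was at 20410, 14307, 14264, 8559 and 22193 CPM. None of the 5 laser treated libraries lay within the control range, 2 being above and 3 below it. The group means were 18328 ± 1887 CPM (SD, n = 6) and 15947 ± 5455 CPM (SD, n = 5), and the log2 fold change of -0.20 (SE 0.20, 95% interval -0.65 to 0.25) did not pass edgeR's quasi-likelihood test (adjusted p = 0.695). Without laser treated 4 it was -0.056, and without laser treated 5 or 1 it was -0.35 or -0.31.

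Rbp4, on chromosome 19 from 38116629 to 38125281 (minus strand, 6 exons), was measured by few reads. It had 66, 99, 120, 71, 159 and 201 counts in naïve control 1 to 6 and 88, 194, 51, 14 and 108 counts in laser treated 1 to 5. Scaled to library size these were 1.87 to 6.07 CPM with a median of 3.95 in naïve control, and 2.85, 5.27, 1.46, 0.401 and 3.25 CPM in laser treated libraries. Thus 3 laser treated libraries lay within the control range and laser treated 3 and 4 lay below it.

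With means of 3.71 ± 1.55 CPM (SD, n = 6) and 2.64 ± 1.85 CPM (SD, n = 5), the log2 fold change of Rbp4 was -0.49 (SE 0.60, adjusted p = 0.770). Its 95% interval, -1.84 to 0.87, was the widest of the carriers and spans more than a halving and close to a doubling. The log2 fold change was -0.23 without laser treated 4, -0.31 without naïve control 6 and -0.90 without laser treated 2.

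Because transthyretin and retinol-binding protein circulate as a complex, the ratio of their transcripts was taken within each library, where library scaling cancels. There were 2497 to 9792 Ttr counts for each Rbp4 count in naïve control libraries and 7164, 2713, 9801, 21335 and 6837 in laser treated 1 to 5. On the log2 scale the ratio was 12.38 ± 0.73 (SD, n = 6) and 12.92 ± 1.07 (SD, n = 5). The difference of 0.54 had a two-sided p of 0.338 by exact permutation of the 11 libraries (462 splits). The counting error of the ratio was largest in laser treated 4, with a log2 SE of 0.386, and without this library the difference was 0.18 (exact permutation test, p = 0.695).

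Ptgds, on chromosome 2 from 25466709 to 25470046 (minus strand, 7 exons), ranged from 33069 to 45386 CPM in naïve control with a median of 40010 CPM. Laser treated 1 to 5 had 51438, 40592, 39265, 23829 and 49850 CPM. The highest library and the lowest were both laser treated, with 2 of the 5 inside the control range. The means, 39830 ± 4516 CPM (SD, n = 6) and 40995 ± 11015 CPM (SD, n = 5), gave a log2 fold change of 0.04 (SE 0.17, 95% interval -0.35 to 0.43, adjusted p = 0.941). Without laser treated 4 it was 0.17 (SE 0.12, adjusted p = 0.583), and it was below 0 without laser treated 1 (-0.053), laser treated 5 (-0.039) or naïve control 3 (-0.021).

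Clu, on chromosome 14 from 65968483 to 65981547 (plus strand, 9 exons), was the carrier with the clearest difference. Naïve control libraries ranged from 6596 to 10694 CPM with a median of 8756 CPM, and laser treated 1 to 5 had 12512, 12144, 11302, 9427 and 10192 CPM. All 5 laser treated libraries exceeded the control median, 3 exceeded every control, and 4 of the 6 controls lay below every laser treated library. The means were 8685 ± 1390 CPM (SD, n = 6) and 11116 ± 1299 CPM (SD, n = 5). This was 1.28-fold, a log2 fold change of 0.36 (SE 0.13, 95% interval 0.063 to 0.65), with an unadjusted p of 0.0159 that did not hold after adjustment over all genes (adjusted p = 0.220, edgeR).

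The libraries' dependence on base composition moved with this difference. The slope of log2 level on GC content, fitted over 12601 genes, was higher in each of the laser treated libraries 2 to 5 (0.18 to 0.30 per 10% GC) than in any naïve control (-0.36 to 0.01), and laser treated 1, at 0.01, was level with the highest control. With this trend removed the log2 fold change of Clu was 0.12 (adjusted p = 0.921). Across the 11 libraries log2 CPM of Clu had r = 0.79 (rho = 0.74) with that slope, r = -0.69 (rho = -0.76) with the summed photoreceptor markers. It had r = 0.92 (rho = 0.87) with the summed retinal glia markers, but Apoe makes up 91.2% of that sum, and without Apoe the value was r = 0.24 (rho = 0.073). With the summed leptomeningeal fibroblast markers it had r = 0.89 (rho = 0.83), where Slc6a13 makes up 86.4% of the sum, and r = 0.75 (rho = 0.57) without Slc6a13. The retinal glia sum with Apoe ranged from 5103 to 8913 CPM in naïve control and from 6717 to 9628 CPM in laser treated libraries. The part of any of these in the Clu difference was not tested.

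Enpp2, on chromosome 15 from 54838901 to 54952892 (minus strand, 25 exons in its longest transcript), ranged from 6887 to 12993 CPM in naïve control with a median of 8772 CPM. Laser treated 1 to 5 had 10886, 11817, 6580, 7429 and 6755 CPM. Naïve control 6 was the highest library and the next control was at 8944 CPM, while the laser treated libraries fell into a high pair, 1 and 2, and 3 low libraries. The means, 8925 ± 2181 CPM (SD, n = 6) and 8693 ± 2469 CPM (SD, n = 5), differed by a log2 fold change of -0.04 (SE 0.20, 95% interval -0.48 to 0.41, adjusted p = 0.954). It was -0.17 without laser treated 2 and 0.080 without naïve control 6.

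Cst3, on chromosome 2 from 148871722 to 148875692 (minus strand, 3 exons), was the steadiest carrier in naïve control, at 6809 to 8492 CPM with a median of 7356 CPM. Laser treated 1 to 5 had 9155, 7025, 6923, 4450 and 9562 CPM. The 2 highest libraries and the lowest were laser treated, and the other 2 lay inside the control range. The means were 7477 ± 592 CPM (SD, n = 6) and 7423 ± 2051 CPM (SD, n = 5), with a log2 fold change of -0.01 (SE 0.17, 95% interval -0.39 to 0.36, adjusted p = 0.986). Without laser treated 4 it was 0.11 (SE 0.12, adjusted p = 0.751), and without laser treated 5 it was -0.12.

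**Figure D2:**
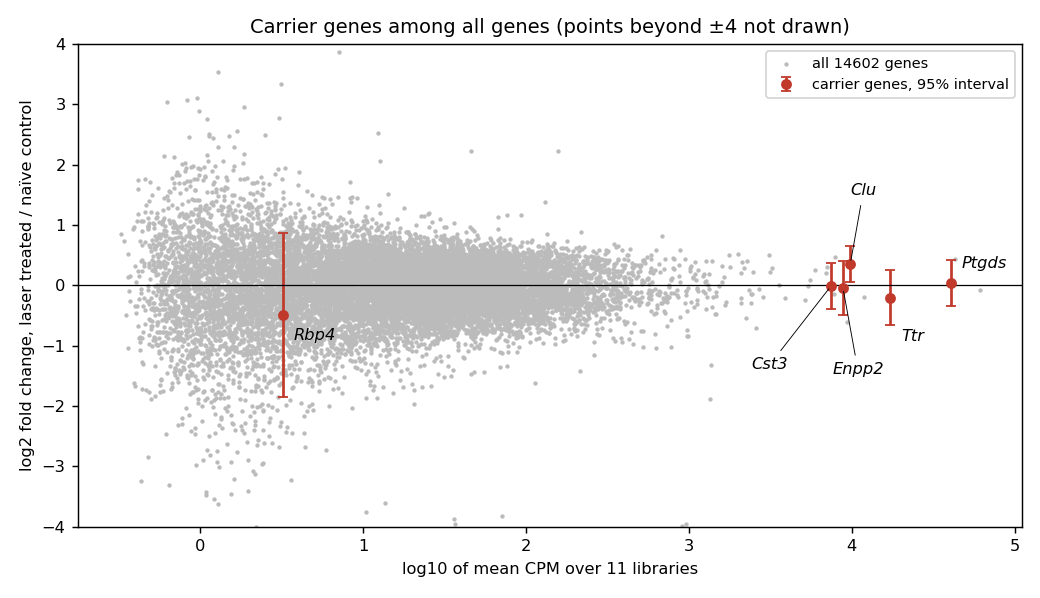
Log2 fold change of laser treated over naïve control (y axis) against log10 of the mean CPM over 11 libraries (x axis) for all 14602 genes (grey points) and the 6 carriers (red points with 95% intervals). Of the red intervals, that of Clu (0.063 to 0.65) is the 1 that lies above 0, and that of Rbp4, at the low end of the x axis, is the widest.

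The R1 and R2 labels split the Enpp2 data. Among R1 libraries the log2 fold change was 0.60 (SE 0.20, unadjusted p = 0.0169) and among R2 libraries -0.55 (SE 0.18, unadjusted p = 0.0138), with adjusted p of 0.202 and 0.790. In R1 both laser treated libraries exceeded the 3 controls, and in R2 all 3 laser treated libraries lay below the 3 controls. The share of all genes with groups apart within a label was not computed, and the fits by label were added after seeing the data. The difference between the labels, -1.15 (SE 0.25), had an unadjusted p of 6.36e-04 and an adjusted p of 0.321 over all genes. Of all 14602 genes, 1387 (9.5%) had an unadjusted p under 0.05 for this difference and 0 an adjusted p under 0.05.

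For Clu the log2 fold change was 0.69 in R1 and 0.12 in R2, and the difference of -0.58 had an unadjusted p of 0.0185 (adjusted p = 0.434). In R2, laser treated 3 exceeded the 3 controls and the other 2 lay within their range. Ttr had -0.07 in R1 and -0.25 in R2, Ptgds 0.25 and -0.08, and Cst3 0.19 and -0.13. Rbp4 had 0.34 in R1 and -1.27 in R2, with standard errors of 0.73 and 0.89.

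**Figure D3:**
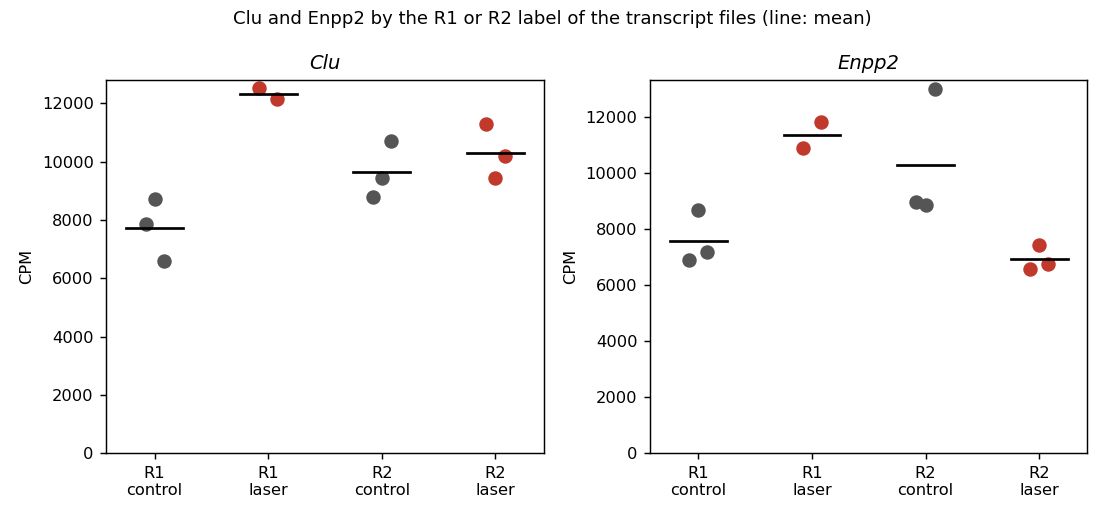
CPM (y axis from 0) of Clu and Enpp2 in each library, split by the R1 or R2 label of the transcript files and by group (grey, naïve control, and red, laser treated), with the mean of each set as a line. Enpp2 is higher after laser in R1 and lower in R2, and the Clu sets are further apart in R1 (log2 fold change 0.69) than in R2 (0.12).

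Most carriers spread more widely among the laser treated libraries. The coefficient of variation of CPM was larger after laser for 5 of 6 carriers, a difference that was not tested. The share of all genes with a larger variation after laser was not computed, so a wider spread is not shown to be particular to the carriers. The coefficient was 10.3% in naïve control and 34.2% in laser treated libraries for Ttr, 11.3% and 26.9% for Ptgds, and 7.92% and 27.6% for Cst3. Laser treated 4 was the lowest of all 11 libraries for 4 carriers, at 54.5% below the control median for Ttr, 40.4% for Ptgds, 39.5% for Cst3 and 89.8% for Rbp4. Without it the laser treated variation was 23.1% for Ttr, 13.8% for Ptgds and 17.0% for Cst3.

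Clu and Enpp2 did not share this drop. In laser treated 4 Clu was at 9427 CPM against a control median of 8756 CPM, and Enpp2 at 7429 against 8772 CPM. The variation of Clu was 16.0% in naïve control and 11.7% after laser, and that of Enpp2 24.4% and 28.4%.

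Over the 11 libraries Ttr, Ptgds and Cst3 varied together. Of the 15 pairs of carriers, 3 had a Pearson correlation of log2 CPM above 0.8, and these were the pairs among those genes. Cst3 and Ptgds had r = 0.95 (rho = 0.86), Cst3 and Ttr r = 0.94 (rho = 0.92), and Ttr and Ptgds r = 0.84 (rho = 0.76). When the 2 libraries farthest from the median were left out these were 0.80, 0.79 and 0.54, and among the 6 R2 libraries they were 0.97, 0.98 and 0.91. No correlation is given for the 5 R1 libraries, which are fewer than the 6 required here. These points share their library's scaling and preparation, and are given as a description.

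Libraries in which long transcripts were relatively higher had less of these genes. The slope of log2 level on transcript length was 0.16 per doubling of length in laser treated 4, the highest of the 11, and -0.11 in laser treated 5, the lowest. Its correlation with log2 CPM was r = -0.80 (rho = -0.72) for Ttr, -0.78 (rho = -0.71) for Cst3, -0.71 (rho = -0.48) for Ptgds and -0.66 (rho = -0.41) for Rbp4, but -0.06 (rho = -0.01) for Clu. The transcripts of Ttr and Rbp4 are 1186 and 1161 bases long. With the length trend removed the log2 fold change was 0.24 for Cst3 and 0.27 for Ptgds, with unadjusted p of 0.129 and 0.130. The part of this trend in the shared variation was not tested. Length was not the only such correlate. The summed photoreceptor markers had r = -0.64 (rho = -0.74) with Ptgds, -0.62 (rho = -0.71) with Cst3 and -0.40 (rho = -0.48) with Ttr. They had -0.65 (rho = -0.53) with Enpp2 and -0.49 (rho = -0.39) with Rbp4, and their part was not tested either.

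Enpp2 moved with the RPE markers. Its correlation with the summed RPE markers was r = 0.88 (rho = 0.81), and that of Rbp4 was r = 0.78 (rho = 0.76). Clu had 0.53 (rho = 0.55), Ptgds 0.52 (rho = 0.49), Cst3 0.40 (rho = 0.33) and Ttr 0.25 (rho = 0.13). Rgr leads this sum, with a mean of 60802 CPM, and no correlation without it was computed. The sum was highest in naïve control 6, the library with the most Enpp2, and next in laser treated 2.

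**Figure D4:**
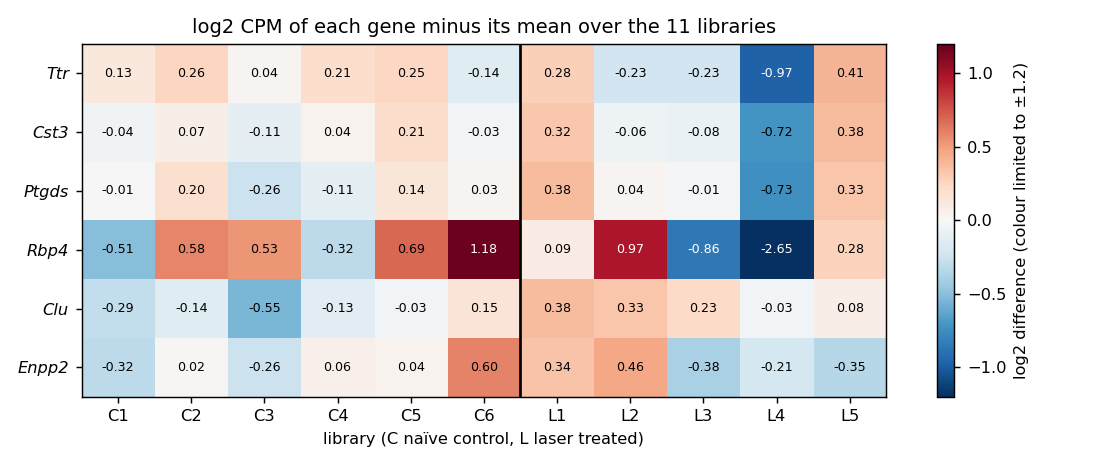
Log2 CPM of each carrier (rows) in each library (columns, naïve control left and laser treated right of the line) minus the gene's mean over the 11 libraries; red is above and blue below the mean, and colour stops at 1.2. Ttr, Cst3 and Ptgds share their pattern, with -0.97, -0.72 and -0.73 in laser treated 4, where Rbp4 is at -2.65 and Clu at -0.03.

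Among the 8853 genes with a mean of at least 10 CPM, the patterns most like Cst3 by Pearson correlation over the 11 libraries included those of Mrps18a (r = 0.99), a mitochondrial ribosomal protein, and 1700112E06Rik (0.97). Those most like Ttr included 2210408F21Rik (0.98) and Scand1 (0.96). Ptgds was nearest to Fam158a (0.95), Mrps18a (0.95) and Cst3 itself. The nearest to Clu were Mtch1, Tspan10 and Phgdh (each 0.97), of which Tspan10 is a tetraspanin of the RPE and Phgdh starts serine synthesis. Enpp2 was nearest to Prkcq (0.93), Ctsc (0.93), the cathepsin that activates serine proteases, and Plbd1 (0.92), and Rbp4 to Mmadhc (0.93), Adi1 (0.93) and Ube2m (0.90).

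Short stretches before the start sites of Ptgds and Cst3, which varied together, and of the low Rbp4 are set beside each other, each covering the bases 45 to 16 before a RefSeq start on the minus strand of GRCm38.p6. RefSeq gives 2 starts for Rbp4. Capitals mark TATAAA, the core of the TATA box.
Ptgds: aggccaagcctgactcataaatagggggtc
Cst3: aggcggggcccgctagggggcagacggaaa
Rbp4, upstream start: acagcaccacaactcatcaaagagtaaaat
Rbp4, downstream start: ccccctccccccggagcTATAAAggaccga
They lie at chr2:25469765-25469794, chr2:148875528-148875557, chr19:38125337-38125366 and chr19:38124827-38124856. The downstream start of Rbp4 lies within the first intron of the 6-exon transcript, and the Ptgds and Cst3 windows lie within the first exon of theirs, since RefSeq places these starts further in. Searched on both strands from 250 bases before to 50 after each start, TATAAA was found before the downstream start of Rbp4 and in 13.6% of the 32851 promoters of the same length. GGGCGG, the GC box, was found 2 times at Cst3 and 2 times at the downstream start of Rbp4, where it did not overlap TATAAA. It was in 35.7% of the same 32851 promoters. A match describes the letters only.

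The assembled transcripts deposited for each library were blocks of 1 exon. For Clu they gave a depth in both groups at exons 5, 7 and 9 of its 9, and the other exons could not be compared. Exon 5 of Clu (65975581 to 65975992) had a block of its own in all 11 libraries. Its read depth per 1000000 counts was 390, 442, 329, 476, 490 and 575 in naïve control 1 to 6 and 649, 620, 626, 556 and 606 in laser treated 1 to 5, so that only naïve control 6 reached the range of the laser treated libraries. The means were 450 ± 85.1 (SD, n = 6) and 612 ± 34.7 (SD, n = 5).

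Exon 7 of Clu had 604 ± 93.7 (SD, n = 5) and 875 ± 114 (SD, n = 3) in the libraries with such a block, and exon 9, the last, 453 ± 17.2 (SD, n = 4) and 565 ± 20.9 (SD, n = 4). In both exons every laser treated value exceeded every control value among these libraries. How often exons of other genes separate in this way was not computed. In exon 7 the lowest laser treated value was 743 and the highest control value 736. Laser treated 5, at 10192 CPM of Clu, had no such block in either exon. Exon 7 also had none in naïve control 2 and laser treated 3. Exon 9 had none in naïve control 3 and in naïve control 6, the control with the most Clu. These depths come from the same libraries as the counts, were not corrected for GC content and carry no test of their own.

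Exon 1 of Cst3, by the same measure, had 1570 ± 167 (SD, n = 6) and 1616 ± 462 (SD, n = 5), and the last exon of Enpp2 had 356 ± 42.1 (SD, n = 6) and 293 ± 71.4 (SD, n = 5), with overlapping groups. Blocks on Rbp4 covered exons 5 and 6, its 3′ end, and no other. The depth of exon 6 was 1.09 ± 0.399 (SD, n = 6) and 0.618 ± 0.427 (SD, n = 5). Blocks on Ttr and Ptgds joined several exons in most libraries and gave no comparable depth.

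**Figure D5:**
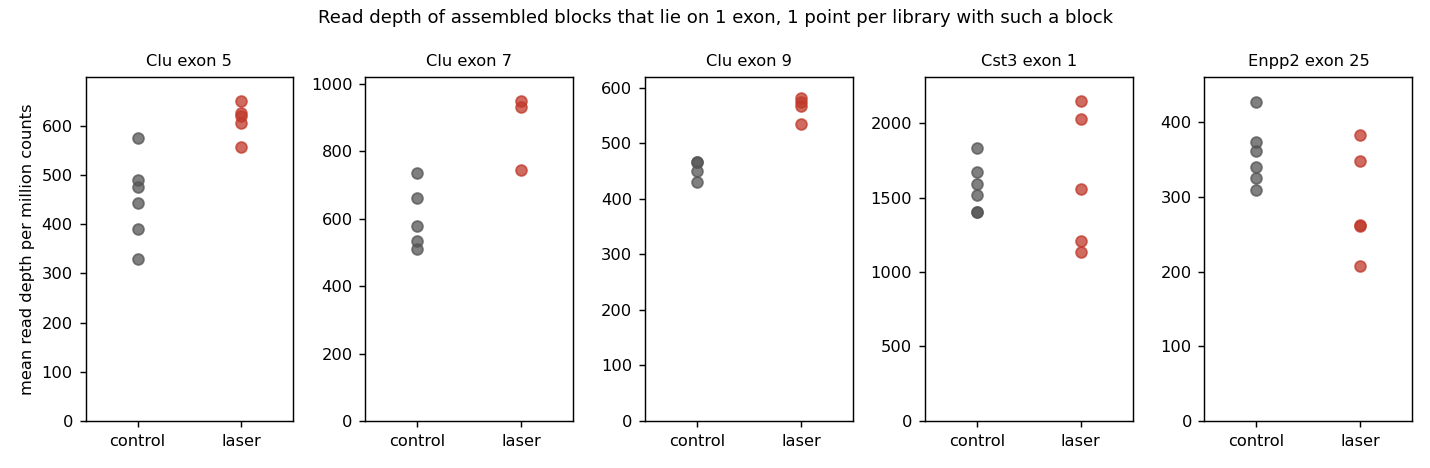
Mean read depth per 1000000 counts (y axis from 0, 1 scale per panel) of blocks that lie on a single exon of Clu, Cst3 and Enpp2, with 1 point per library that has such a block (grey, naïve control, and red, laser treated). In Clu exons 7 and 9 the red points all lie above the grey points, in Clu exon 5 they do so except for naïve control 6 at 575, and in Cst3 exon 1 and Enpp2 exon 25 the groups overlap.

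The proteins that act with the carriers were listed by role, 139 measured genes in all beside the carriers. None had an adjusted p under 0.05, 21 were higher and 2 lower at an unadjusted p under 0.05, against 8.24% higher and 7.68% lower among all genes, and the median log2 fold change was 0.14 against -0.02 over all genes. The groups were apart for 3 of the 139, against 2.26% of all genes. The shares to set beside each list below are those over all genes. Of these, 15.9% lay at an unadjusted p under 0.05 and 48.5% had a log2 fold change above 0. With the GC trend removed, 9 of the 139 were higher and 0 lower at an unadjusted p under 0.05, against 2.48% higher and 4.42% lower among all genes, and the median was 0.083. By list the number at an unadjusted p under 0.05 then went from 7 to 1 for the other abundant secreted proteins, from 3 to 0 for the cystatins and cathepsins and likewise for the prostaglandin genes. It went from 5 to 3 for thyroid hormone, from 3 to 1 for the clusterin partners, from 3 to 2 for autotaxin and from 1 to 2 for retinoid handling. Over all 14602 genes the number fell as well, from 2325 to 1008. The counts of the lists and of all genes thus depended on the GC correction.

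Retinoid handling was represented by 23 of 27 listed genes, with 14 higher and 9 lower and a median log2 fold change of 0.20. The 4 with the most counts, all of them RPE genes of the visual cycle, did not pass the test. Rpe65 had a log2 fold change of -0.19 (adjusted p = 0.670), Rdh5 and Rdh10, retinol dehydrogenases, 0.21 and 0.01, and Rlbp1, the retinaldehyde carrier, 0.26. The only one of the list at an unadjusted p under 0.05 was Stra6, the receptor that takes up retinol from its plasma carrier, named after its values were seen. It was at 1663 ± 358 CPM (SD, n = 6) and 2397 ± 378 CPM (SD, n = 5), with a log2 fold change of 0.53 and an adjusted p of 0.179.

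Thyroid hormone transport and response was represented by 16 of 22 genes, with 11 higher and 5 lower and a median of 0.28. Of the 16, 5 lay at an unadjusted p under 0.05, against 15.9% of all genes. With the GC trend removed 3 of the 16 did, and of all genes 2.48% were then higher and 4.42% lower at that p. The transporters Slco1a4 and Slco1c1 had -0.21 and 0.03, and Ncor1, a corepressor of the receptors, -0.34.

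Of the prostaglandin genes 19 of 22 were measured, with a median of 0.08. Ptgs2, which makes the substrate of Ptgds, and Ptgdr and Ptgdr2, the receptors of its product, were not analysed here. Ptgs1, the other enzyme for that substrate, named after its values were seen, was at 8.21 ± 2.43 CPM (SD, n = 6) and 7.14 ± 5.65 CPM (SD, n = 5). The prostaglandin E synthases Ptges and Ptges2 had log2 fold changes of 0.33 and 0.41 (adjusted p = 0.279 and 0.204), Pla2g5, a phospholipase, 0.18 and Cbr1, a carbonyl reductase, 0.11.

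Of the other lipocalins and fatty acid binding proteins 7 of 14 were measured with a median of 0.20. Apod, a lipocalin, had a log2 fold change of 0.71 (adjusted p = 0.471) and C8g, the lipocalin of the complement complex, 0.20. Fabp3 had -0.44 and Fabp5 -1.66 (adjusted p = 0.363). The Fabp5 value rested on naïve control 4, at 70.2 CPM against 2.60 to 8.76 CPM in the other controls, and was -0.02 without that library.

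Clusterin partners were measured for 19 of 23 genes, with 13 higher and 6 lower and a median of 0.07. Apoe had a log2 fold change of 0.30 (adjusted p = 0.389) and Pltp, the phospholipid transfer protein, 0.50 (adjusted p = 0.185). Hspa5, the chaperone of the endoplasmic reticulum, had 0.16 and A2m, another extracellular chaperone, 0.07. Vldlr, a receptor of the lipoprotein family, named after its values were seen, had -0.36 and was the 1 clusterin partner with an unadjusted p under 0.05 in the lower direction.

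Autotaxin and LPA genes were measured for 20 of 26, with a median of 0.06. The phosphodiesterase Enpp5 had a log2 fold change of -0.17 and Gde1, a glycerophosphodiesterase, 0.07. The acyltransferases Agpat3 and Agpat5, which use LPA, had 0.24 and -0.41. The receptors Lpar1, Lpar3 and Lpar6, chosen after their values were seen, were at 18.1, 24.0 and 20.7 CPM in naïve control, with log2 fold changes of 0.39, 0.07 and -0.13.

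Cystatins and cathepsins were measured for 18 of 21 genes, with a median of 0.14. Ctsd, the aspartic cathepsin and not a target of cystatin C, was at 6733 ± 1291 CPM (SD, n = 6) and 9291 ± 1245 CPM (SD, n = 5), with a log2 fold change of 0.46 (adjusted p = 0.181). Of the 10 cysteine cathepsins measured, the class that cystatin C inhibits, 7 had a log2 fold change above 0 and 3 below. Ctsb, Ctsl and Ctsc, named for their mean CPM, had 0.15, 0.0079 and -0.07. Ctsf, named after its values were seen, had 0.40 and was the 1 of them at an unadjusted p under 0.05 (0.00345, adjusted p = 0.174). Other abundant secreted proteins, 22 of 22 measured, had 15 higher and 7 lower with a median of 0.32. Of the 22, 7 lay at an unadjusted p under 0.05, against 15.9% of all genes. With the GC trend removed 1 of the 22 did, and of all genes 2.48% were then higher and 4.42% lower at that p. In this list Trf had 0.43 (adjusted p = 0.277) and Timp3, an inhibitor of metalloproteinases, -0.01.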

How the data were processed

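Total RNA of 11 RPE/choroid samples was sequenced after SmartSeq v4 pre-amplification and NexteraXT library preparation. Per the labels, the authors used bcl2fastq 2.18.0.12, Trim Galore, STAR 2.5.3a, featureCounts 1.5.3, StringTie 1.3.3 and edgeR 3.22.3, with builds mm10 and GRCm38; which tool made which column, and whether strand was used, is not given in the sources used here. The authors deposited raw counts per gene, without normalization, beside log2 fold changes, F statistics and p-values of their own comparison, which were not used. The deposited transcript files give coverage and TPM of assembled blocks as attributes.

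Carriers were found by symbol. The members and the gene lists were chosen with earlier results of these data known. edgeR 4.0.16 (R 4.3.3) was run on all 14602 genes and 11 libraries with TMM factors and robust quasi-likelihood fits. filterByExpr left out 0 genes. P-values were adjusted by Benjamini-Hochberg over the whole table, and the threshold was 0.05. The common biological coefficient of variation was 0.58. The study's methods describe groups of equal size, while the labels name 5 laser treated samples, all of which were analysed. Replicates were samples labelled as separate; p-values measure the spread between them. CPM used TMM library sizes; TPM from counts used the longest GENCODE M21 transcript. Trends on GC and length were fitted by loess (span 0.3). Blocks were assigned to exons when at least 85% exonic. Intervals are 95%. The fit was tested on simulated data of 14345 genes with 200 changed 4-fold: 71.5% were called, and 4.67% of calls were unchanged genes. Genes named beside the carriers were the 4 with the highest mean CPM in each partner list, the 3 most alike in pattern and the neighbours in rank; others are marked as chosen after their values were seen, and some genes that the rule names are not reported here.

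Alternatives were DESeq2 1.42.0, upper quartile scaling, no TMM, totals without the carriers, a minimum of 10 counts, no filter, non-robust fits, limma 3.58.1 voom with quality weights, limma-trend applied to the deposited TPM after log2 (pseudocounts 1 and 0.1), a block for replicate number, GC and length trends, the R label as covariate, and each library left out. Fits within each R label, the difference between labels, and leaving out naïve control 6 with laser treated 4 and 5 were added after seeing the data. Counts of partner genes with the GC trend removed, and marker sums without their leading gene, were also added after seeing the data. Promoter windows came from RefSeq's GRCm38.p6 table with chromosome 18, which holds Ttr, left out. Among the rest 3 of the 6 carriers were matched by symbol, and gene coordinates came from GENCODE M21. Python 3.11.15 with numpy 2.4.6, pandas 2.3.3, scipy 1.17.1 and matplotlib 3.10.9 was used for tables, exact tests and figures.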

Additional observations from a re-analysis of the deposited data

Results flagged for a closer look

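Enpp2 in naïve control 6 was at 12993 CPM, while the other 5 controls ranged from 6887 to 8944 CPM, a gap larger than Dixon's criterion allows for 6 samples. Fabp5, a fatty acid binding protein, was at 70.2 CPM in naïve control 4 and at 2.60 to 8.76 CPM in the other controls. Ptges, a prostaglandin E synthase, was at 222 CPM in laser treated 5 and at 259 to 270 CPM in the other laser treated libraries. These were 3 of 76 groups of values examined, and chance alone singles out about 5% of groups.

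The laser effect differed between R1 and R2 libraries for 2 carriers at an unadjusted p under 0.05. For Enpp2 the log2 fold change in R2 minus that in R1 was -1.15 (unadjusted p = 6.36e-04, adjusted p = 0.321), and for Clu it was -0.58 (unadjusted p = 0.0185, adjusted p = 0.434), by the interaction term of edgeR's quasi-likelihood fit, in which 9.5% of all genes reach an unadjusted p under 0.05.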

How the results depend on the processing

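No carrier reached an adjusted p under 0.05 in any of 174 results under the alternatives, and Clu was above 0 in all 29 of its own, from 0.12 with the GC trend removed or within R2 to 0.69 within R1. The self-test recovered most 4-fold changes, and the carriers' intervals show what smaller changes the spread between libraries hides.

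The number of genes called over all genes was 0 in the edgeR fit and 502 of the 7512 genes given an adjusted p by DESeq2. It was 1 with no TMM factor, 2 with at least 10 counts in every library and 1 with voom weights. On the deposited TPM of assembled blocks it was 2 and 2 with a pseudocount of 1 and 0.1. Leaving out 1 library gave 0 to 4 calls, the 4 without laser treated 2. DESeq2 called 1 of the 23 measured genes of the retinoid list, 3 of 16 of the thyroid list and 1 of 19 clusterin partners. It called 1 of 20 autotaxin genes, 2 of 18 cathepsins or cystatins and 3 of 22 other secreted genes. Among those called were Ctsd (log2 fold change 0.46) and Pltp (0.50). The share over all genes given an adjusted p by DESeq2 was 6.68%. The list totals count measured genes whether or not DESeq2 gave them an adjusted p, so they are on another base than this share. The cause of these differences was not tested.

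Carriers with a log2 fold change near 0 changed sign under some alternatives. On the deposited TPM of assembled blocks (pseudocount 1 or 0.1), Ttr had 0.13 and 0.13, Ptgds -0.23 and -0.23 and Cst3 0.15 and 0.15. That scale is not the TPM from counts, since it sums the blocks assembled on a gene, which differed between libraries. Laser treated 4 was the highest library for Ttr there, at 8894 TPM, and the lowest from counts, at 18097 TPM. These sign changes are therefore not comparable with the count results. With the GC trend removed Ptgds had -0.20 and Enpp2 0.14, and with the length trend removed Cst3 had 0.24. Cst3 had 0.0037 with upper quartile scaling, 0.00028 with no TMM factor and 0.0022 with totals that leave out the carriers. Within R1 Rbp4 had 0.34, Enpp2 0.60 and Cst3 0.19, and within R2 Ptgds had -0.078. Without naïve control 6 and laser treated 4 and 5, a choice made after seeing the data, Enpp2 had 0.28, Cst3 0.046 and Rbp4 -0.00076. Leaving out each library in turn, Ptgds ranged from -0.053 to 0.17, Enpp2 from -0.17 to 0.080, Cst3 from -0.12 to 0.11, Rbp4 from -0.90 to -0.23, Ttr from -0.35 to -0.056 and Clu from 0.27 to 0.41, and the log2 ratio of Ttr to Rbp4 differed by 0.18 to 0.92.

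Same-numbered libraries 1 to 5 had deviations that correlated at 0.0054, 0.12, 0.30, -0.0026 and -0.014. Naïve control 2 and 3 correlated most with the laser treated library of the same number, and naïve control 1, 4 and 5 with another. These values do not settle whether the replicate numbers pair the samples. With the replicate block Ptgds had -0.0089 and Enpp2 0.046, with the block and the GC trend removed -0.28 and 0.28, and the ratio of Ttr to Rbp4 differed by 0.32 (exact permutation test of the pairs, p = 0.5); the block changed no call.

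Of the partner genes, with the GC trend removed the sign turned for Ctsc (0.23), Gde1 (-0.12), Rdh5 (-0.046), Rpe65 (0.083), Slco1a4 (0.10) and Timp3 (0.11), and with the block besides for Ctsc (0.38), Enpp5 (0.049), Gde1 (-0.14), Rdh5 (-0.038), Rpe65 (0.14), Slco1a4 (0.23) and Timp3 (0.13). The block alone gave 0.013 for Ctsc and -0.047 for Ctsl, the length trend -0.092 for Rdh10 and -0.067 for Slco1c1, voom -0.0086 for Ctsl and no TMM factor 0.0076 for Timp3. On the deposited TPM of assembled blocks (pseudocounts 1 and 0.1) Agpat3 had -0.066 and -0.066 and Ctsc 0.78 and 0.79. The values were -0.071 and -0.071 for Ctsl, 0.57 and 0.58 for Ncor1 and 0.13 and 0.13 for Rpe65. Timp3 had 0.21 and 0.21 there, Trf -0.16 and -0.16, and C8g -0.33 at 0.1. Leaving out 1 library turned A2m (-0.022 to 0.15), C8g (-0.011 to 0.45), Ctsc (-0.22 to 0.029), Ctsl (-0.097 to 0.089), Rdh10 (-0.061 to 0.14), Slco1c1 (-0.075 to 0.13) and Timp3 (-0.10 to 0.059).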
